A study of Mus musculus with 8 samples.

Results

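The p53 pathway is described here through 9 genes: Trp53, which encodes the transcription factor p53, and 8 genes that p53 is known to act on or that arrest growth with it (Mdm2, Cdkn1a, Btg2, Gadd45a, Ccng1, Bax, Phlda3 and Gdf15). They were taken by symbol from a table of 35638 genes, and all 9 were found in it. Livers of mice 90 days after birth had been frozen before their RNA was sequenced. The mice were on a mix of the C57/B6 and 129 strains. All 8 samples carried floxed Arid1a alleles. In 4 of them (WT) nothing else is given, and 4 (KO) also carried Alb-cre, a transgene whose albumin promoter drives Cre recombinase in hepatocytes. Liver cells in which Cre was never active keep Arid1a. The Arid1a protein is part of SWI/SNF complexes, which move nucleosomes. Whether each sample is its own animal is not said in the labels, so the p-values rest on the spread between samples alone, and that spread may be technical.

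p53 is kept scarce by Mdm2, a ubiquitin ligase that p53 itself switches on. After DNA damage or other stress p53 is stabilised and binds a response element made of repeated decamers, which raises genes of growth arrest (Cdkn1a, Btg2, Gadd45a), of cell death (Bax) and of its own restraint (Mdm2, Ccng1). Several of these genes have other inducers as well: Cdkn1a and Gadd45a respond to feeding state and the clock in liver, Btg2 is an immediate early gene, and Gdf15 is a secreted stress hormone also driven by the integrated stress response.

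The stretches below mark matches to the decamer consensus of p53 response elements before the start of 4 of the genes. A single match is not a whole response element. The 250 bases before each RefSeq gene start (GRCm38.p6) were searched for an exact decamer, whose consensus reads alike on both strands. It was found before 6 of the 9 genes, against 8.20% of 27025 genes with a listed start and 5 of 17 other p53 targets with one. Only stretches without an annotated exon are shown. Capitals mark the decamer, and each stretch is written 5′ to 3′ on the strand of the gene.
Cdkn1a (chr17:29090876-29090967, plus strand): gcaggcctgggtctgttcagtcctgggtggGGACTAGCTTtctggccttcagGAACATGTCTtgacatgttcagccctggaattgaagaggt
Mdm2 (chr10:117710905-117710974, minus strand): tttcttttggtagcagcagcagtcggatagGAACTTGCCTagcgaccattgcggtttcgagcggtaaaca
Ccng1 (chr11:40755432-40755501, minus strand): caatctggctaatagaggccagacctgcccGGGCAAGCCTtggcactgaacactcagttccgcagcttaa
Bax (chr7:45467060-45467129, minus strand): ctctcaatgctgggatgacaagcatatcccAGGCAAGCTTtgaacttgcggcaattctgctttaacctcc
Cdkn1a alone among the 9 had 2 exact decamers within 13 bases of each other, 12 bases apart, a layout found before 18 of the 27025 genes (0.0666%). They precede the upstream of its 2 listed starts and lie 2863 and 2841 bases before the downstream start. Trp53 and Gadd45a held 1 decamer each, and Btg2, Phlda3 and Gdf15 held 0 in this window, which does not reach introns or distant elements. Decamers with a mismatch were not marked, so the marked pair of Cdkn1a need not be the element that p53 binds. A match is a description of the letters and not a measured binding site.

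The values are FPKM, which divide the fragments of a gene by its length and by the size of the library. By the spacing of low values the depth was 12400000 to 13600000 reads in WT and 13700000 to 15200000 in KO, with 46.9 to 51.3% of low values within 0.1 of a whole number of reads. The targeted gene came first: WT 1 to WT 4 held 5.16, 8.38, 3.998 and 4.10 FPKM of Arid1a. KO 1 to KO 4 held 2.70, 2.86, 3.46 and 2.59 FPKM of it. Every KO library was below every WT library, although the limma adjusted p over all genes was 0.316 (log2 change of FPKM + 1 of -0.67 ± 0.23, SE). WT 4 stood apart from the other WT libraries in clock and fasting genes, and KO 1 from the other KO libraries in several p53 targets and cell cycle genes. In WT 4 Dbp, a clock output gene, was at 0.569 FPKM against 20.8 FPKM or more in the other 7 libraries. Cyp4a10, a PPAR-alpha target, was at 317 FPKM in WT 4 against 54.3 FPKM or less in the others. Hepatocyte markers summed to 34552 to 48336 FPKM in WT and 37519 to 55222 FPKM in KO, which makes hepatocyte RNA abundant in every library.

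None of the 8 genes that could be tested differed between KO and WT beyond the threshold. A mean of at least 1 FPKM over the 8 libraries was needed for testing, which 8 of the 9 reached and Phlda3 did not. Of these 8, 0 rose and 0 fell (limma, Benjamini-Hochberg adjusted p under 0.05 over 11266 genes), where 0.763% of all genes tested were called, 0.408% higher and 0.355% lower. At an unadjusted limma p under 0.05, 1 of the 8 was counted, Ccng1, against 9.81% of all genes (4.99% higher and 4.82% lower). Changes were positive for 6 of the 8, as they were for 45.5% of all genes tested, and negative for 2, with a median of 0.42 on the log2(FPKM + 1) scale against -0.03 for all genes tested. The median of the 8 was 0.14 when WT 4 and KO 1 were left out together, an alternative added once the values were known. In these bulk samples fewer cells of a type and less RNA per cell cannot be told apart.

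**Figure D1:**
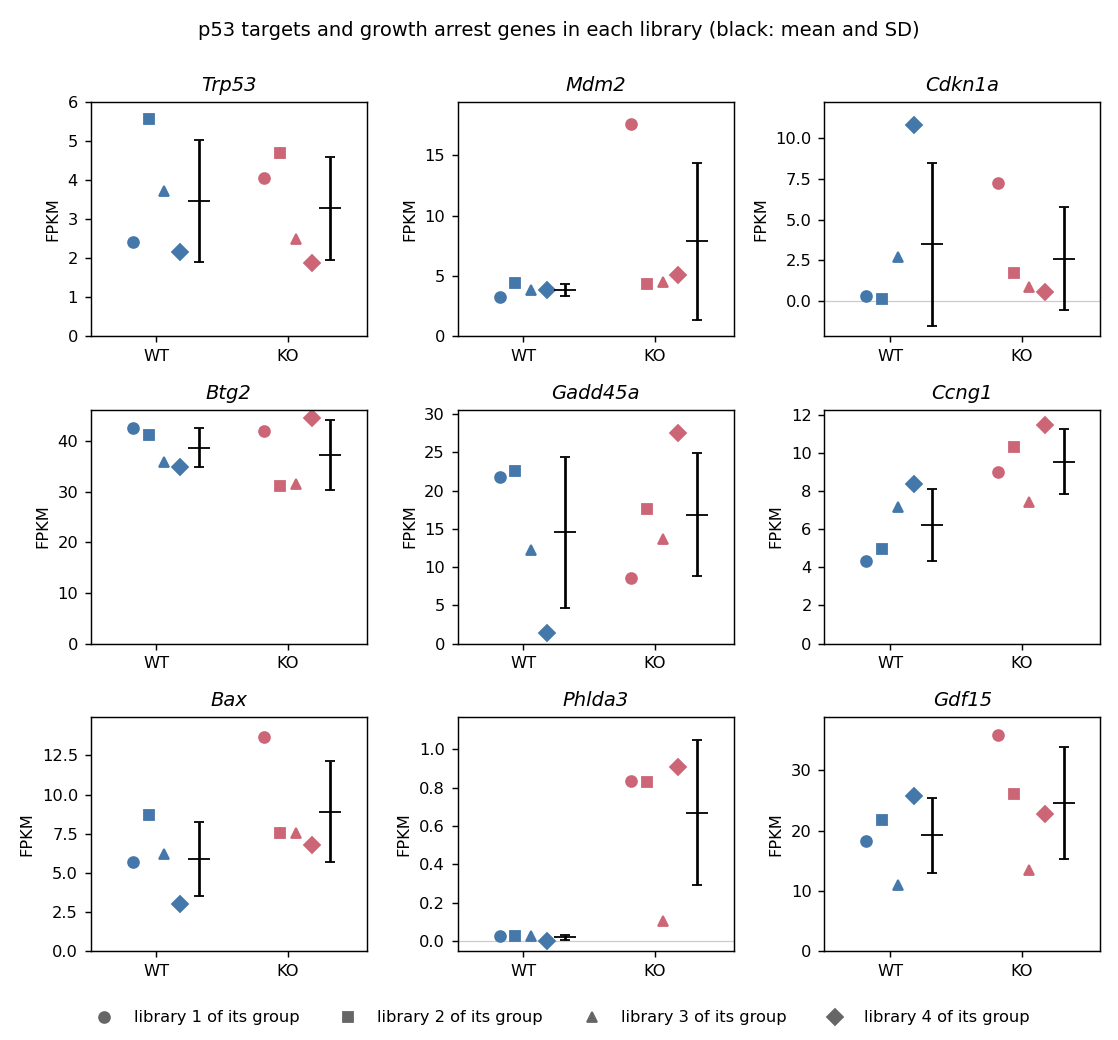
FPKM of the 9 genes in each library (blue, WT; red, KO; the marker shape gives the library number within its group; black, mean ± SD of 4 libraries). KO 1 lies apart in Mdm2 (17.6 FPKM) and Bax (13.7 FPKM), WT 4 is highest in Cdkn1a (10.8 FPKM) and lowest in Gadd45a (1.45 FPKM), and Phlda3 separates the groups at low values.

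The order of abundance, by the mean level over the 8 libraries, ran from Btg2 (38.0 FPKM) through Gdf15 (21.9 FPKM), Gadd45a (15.7 FPKM), Ccng1 (7.87 FPKM), Bax (7.40 FPKM), Mdm2 (5.84 FPKM), Trp53 (3.38 FPKM) and Cdkn1a (3.04 FPKM) to Phlda3 (0.344 FPKM). Each gene overlapped its neighbour in this order in its range over libraries. The spread over libraries also differed between the genes. The SD of log2(FPKM + 1) over the 8 libraries was 0.20 for Btg2, from 0.42 to 0.67 for Trp53, Mdm2, Ccng1, Bax, Phlda3 and Gdf15, 1.13 for Gadd45a and 1.25 for Cdkn1a.

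Trp53 (ENSMUSG00000059552; chromosome 11, 69580359 to 69591873, GRCm38, plus strand) encodes the factor itself, which is controlled mainly as a protein. WT 1 to WT 4 held 2.41, 5.58, 3.74 and 2.16 FPKM. In KO 1 to KO 4 it was at 4.07, 4.71, 2.49 and 1.87 FPKM. The groups overlapped over nearly their whole range, with the lowest value in KO 4 and the highest in WT 2. The log2 change was -0.05 (95% interval -0.73 to 0.62, limma adjusted p = 0.983).

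Mdm2 (ENSMUSG00000020184; chromosome 10, 117688875 to 117710758, minus strand) is both the restraint on p53 and one of its best known targets. The values in WT 1 to WT 4 were 3.27, 4.43, 3.81 and 3.79 FPKM. In KO 1 it was at 17.6 FPKM, and in KO 2 to KO 4 at 4.33, 4.47 and 5.03 FPKM. KO 1 was thus 3.49 times the highest of the other 7 libraries, while KO 2 lay inside the WT range and KO 3 and KO 4 just above it. The means were 3.82 ± 0.475 FPKM over the WT libraries and 7.85 ± 6.49 FPKM over the KO libraries (SD, n = 4 each). The log2 change of 0.65 (95% interval -0.19 to 1.496, limma adjusted p = 0.647) became 0.22 without KO 1.

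Cdkn1a (ENSMUSG00000023067; chromosome 17, 29090976 to 29100727, plus strand) encodes p21, the inhibitor of cyclin-dependent kinases through which p53 stops the cell cycle. WT 1 to WT 4 held 0.288, 0.135, 2.67 and 10.8 FPKM. In KO 1 to KO 4 it was at 7.28, 1.72, 0.824 and 0.561 FPKM. The values spanned 80.1-fold over the 8 libraries, and 1 library of each genotype, WT 4 and KO 1, held the high end. The groups overlapped throughout, with means of 3.48 ± 5.03 FPKM over the WT libraries and 2.60 ± 3.16 FPKM over the KO libraries (SD, n = 4 each). The log2 change was 0.00 (95% interval -1.72 to 1.73, limma adjusted p = 0.999). It was 0.69 without WT 4 and -0.51 without KO 1, so its sign depended on which of these libraries was included. AC167363.2, an antisense gene that is not in the table, overlaps exons of Cdkn1a.

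Btg2 (ENSMUSG00000020423; chromosome 1, 134075170 to 134079120, minus strand), an antiproliferative gene that recruits mRNA deadenylases, was the steadiest of the 9. The values in WT 1 to WT 4 were 42.6, 41.2, 35.9 and 34.9 FPKM. In KO 1 to KO 4 it was at 41.9, 31.2, 31.5 and 44.6 FPKM. KO held both the lowest and the highest library. The log2 change was -0.06 with a 95% interval of -0.47 to 0.34 (limma adjusted p = 0.963).

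Gadd45a (ENSMUSG00000036390; chromosome 6, 67035096 to 67037457, minus strand) encodes a stress sensor that acts on cell cycle kinases and DNA repair. WT 1 to WT 4 held 21.8, 22.5, 12.3 and 1.45 FPKM. In KO 1 to KO 4 it was at 8.54, 17.6, 13.7 and 27.6 FPKM. WT 4, the library highest in Cdkn1a, was the lowest in Gadd45a, and KO 1, the next highest in Cdkn1a, was the next lowest. The log2 change of 0.52 (95% interval -0.99 to 2.03, limma adjusted p = 0.894) turned to -0.22 without WT 4. The antisense gene E230016M11Rik overlaps exons of Gadd45a, and reads of this pair cannot be told apart if strand was not used.

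Ccng1 (ENSMUSG00000020326; chromosome 11, 40748552 to 40755311, minus strand) encodes cyclin G1, a p53 target that acts back on Mdm2 through a phosphatase. The values in WT 1 to WT 4 were 4.35, 4.96, 7.16 and 8.36 FPKM. In KO 1 to KO 4 it was at 8.998, 10.3, 7.43 and 11.4 FPKM. All KO libraries except KO 3 were above every WT library, and KO 3 lay between WT 3 and WT 4. The means were 6.21 ± 1.88 FPKM over the WT libraries and 9.54 ± 1.72 FPKM over the KO libraries (SD, n = 4 each). Its log2 change of 0.57 (95% interval 0.06 to 1.08) did not pass over all genes (limma adjusted p = 0.426, from 0.223 to 0.646 over the alternatives), and it was positive in every alternative fit.

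Bax (ENSMUSG00000003873; chromosome 7, 45461697 to 45466898, minus strand) encodes the protein that opens the outer mitochondrial membrane in apoptosis. WT 1 to WT 4 held 5.68, 8.72, 6.19 and 3.01 FPKM. In KO 1 it was at 13.7 FPKM, and in KO 2 to KO 4 at 7.58, 7.55 and 6.80 FPKM. KO 1 was the highest of the 8 libraries and WT 4 the lowest, and WT 2 exceeded KO 2 to KO 4. The log2 change was 0.54 (95% interval -0.13 to 1.22, limma adjusted p = 0.636) and 0.30 without WT 4 or 0.10 without both WT 4 and KO 1. Gm45808, a gene on the same strand, overlaps exons of Bax, so reads may be split between them.

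Phlda3 (ENSMUSG00000041801; chromosome 1, 135766119 to 135769136, plus strand) encodes a p53-induced protein that opposes AKT signalling. WT 1, WT 2 and WT 3 held 0.0285, 0.0268 and 0.0266 FPKM, and it was listed at 0 in WT 4. In KO 1, KO 2 and KO 4 it was at 0.835, 0.8285 and 0.906 FPKM, and in KO 3 at 0.105 FPKM. It was the only gene of the 9 whose groups did not overlap. This was so for 6.23% of the genes tested (3.05% higher and 3.18% lower in KO). Phlda3 was too low to be among those genes, and the share for low genes is not given. Multiplied by depth, the WT values above 0 were 0.995, 1.003 and 1.002 times their mean. On the same scale KO 1 to KO 4 were at 32.0, 34.9, 4.003 and 37.2 of these smallest steps. With the length of its longest transcript a step came to 0.515 to 0.519 reads at the estimated depth. The depth is an estimate and the gene length behind the FPKM is not known, so how many reads a step holds is not settled. With no filter on low values its log2 change of FPKM + 1 was 0.68 and its limma adjusted p was 0.241 over the larger table.

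Gdf15 (ENSMUSG00000038508; chromosome 8, 70629393 to 70632456, minus strand) encodes a hormone of the TGF-beta family that signals cell stress to the brain. The values in WT 1 to WT 4 were 18.3, 21.8, 11.0 and 25.7 FPKM. In KO 1 to KO 4 it was at 35.9, 26.1, 13.6 and 22.8 FPKM. KO 1 was highest and WT 3 lowest, KO 3 was the next lowest, and the groups overlapped. The log2 change was 0.32 (95% interval -0.41 to 1.05, limma adjusted p = 0.860).

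KO 1 was the highest library for 3 of the 8 genes tested (Mdm2, Bax and Gdf15) and the next highest for Cdkn1a. KO 4 was highest for as many, 3 of the 8 (Btg2, Gadd45a and Ccng1). Across all genes tested, 7.30% had their highest value in KO 1 and 19.9% in KO 4. Of the other p53 targets tested, 2 of 14 (Sesn2 and Plk3) were highest in KO 1. Counting also genes too low to test, 8 of 25 were highest there, against 13.8% of the 27571 genes above 0 in any library. KO 1 was also highest for 8 of 10 stellate, 5 of 10 endothelial and 4 of 6 neutrophil markers above 0, and for 0 of 12 macrophage markers. Among these low genes Eda2r, a death receptor gene, was at 0.413 FPKM in KO 1 against 0.300 FPKM or less elsewhere. Tnfrsf10b, the TRAIL receptor gene, was at 0.733 FPKM there against 0.316 FPKM or less (both named after their values were seen). Eda2r was also higher in every KO library (0.0620 FPKM or more) than in any WT library (0.00996 FPKM or less). KO 1 also held the most RNA of replication and mitosis genes, being highest for 7 of 12 tested cell cycle genes and for 15 of 24 above 0. Mki67, a proliferation marker, was at 2.78 FPKM in KO 1 and 0.826 FPKM or less elsewhere. Chek1, a checkpoint kinase gene, was at 3.29 FPKM there against 0.336 FPKM or less (both named after their values were seen). Mki67 was also higher in every KO library (0.373 FPKM or more) than in any WT library (0.242 FPKM or less). The share of genes this low without overlap is not given. The part of these genes and cells in the p53 values of KO 1 was not tested.

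**Figure D2:**
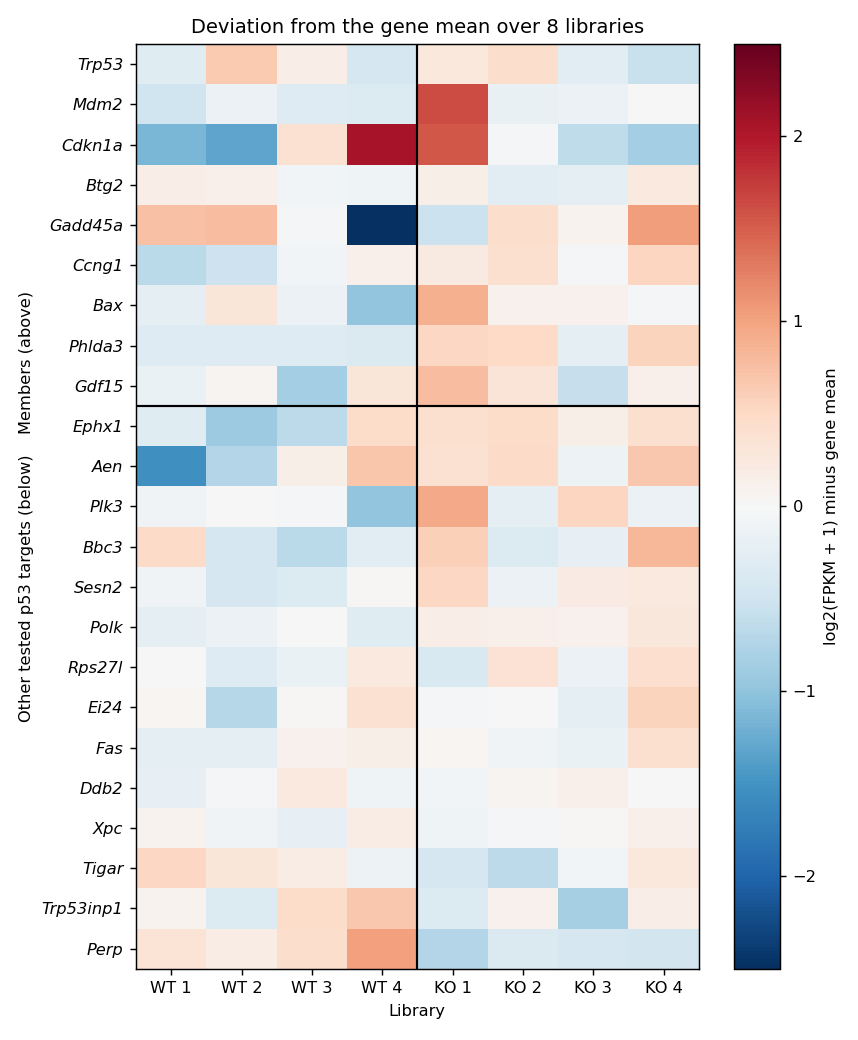
Deviation of log2(FPKM + 1) from each gene's mean over the 8 libraries (red, above; blue, below; rows, the 9 genes above the line and 14 other tested p53 targets below it). Mdm2, Cdkn1a and Bax are red in KO 1, Cdkn1a and Gadd45a take opposite colours in WT 4, and Perp is blue in all 4 KO libraries.

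Among the wider p53 targets, the changes were mostly positive, and the smallest p belonged to a lower value, that of Perp. Of 25 listed targets 14 were tested, and 0 rose and 0 fell over all genes by limma. At an unadjusted limma p under 0.05 there were 2, against 9.81% of all genes tested. Changes were positive for 11 and negative for 3, where 45.5% of all genes tested were positive. The median was 0.13 against -0.03 for all genes. Perp, a desmosome and apoptosis gene, stood at 18.5, 16.5, 19.9 and 30.4 FPKM in WT 1 to WT 4. KO 1 to KO 4 held 8.28, 11.0, 10.6 and 10.2 FPKM of it. Every KO library was below every WT library, and the log2 change was -0.99 ± 0.21 (SE, limma adjusted p = 0.0892). Perp passed the threshold under 3 of the 4 other scalings, namely equal sums of protein-coding genes (0.0275), quantile normalization (0.0354) and median ratio scaling (0.0456, all limma adjusted p). Over all alternatives its adjusted p ran from 0.0275 to 0.205.

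Ephx1, the microsomal epoxide hydrolase gene, stood at 60.2, 39.7, 47.1 and 103 FPKM in WT 1 to WT 4. KO 1 to KO 4 held 99.4, 103, 83.4 and 99.5 FPKM of it. WT 4 alone among the WT libraries reached the KO level, and the limma adjusted p was 0.415 with it and 0.0758 without it. Polk, a translesion polymerase gene, averaged 0.845 ± 0.175 FPKM over WT and 1.32 ± 0.131 FPKM over KO libraries without overlap (SD, n = 4; adjusted p by limma 0.534). Sesn2, a stress-induced brake on mTORC1, had a log2 change of 0.41, Plk3, a stress kinase gene, of 0.56, and Tigar, which lowers glycolytic flux, of -0.44 (limma adjusted p = 0.548, 0.651 and 0.620).

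No call was made among the genes that control p53 either. Of 12 tested regulators 0 rose and 0 fell by limma (0 at an unadjusted p under 0.05, against 9.81% of all genes tested). Changes were positive for 3 and negative for 9, where 45.5% of all genes tested were positive, and the median was -0.13. Mdm4, the partner of Mdm2, averaged 11.4 ± 1.90 FPKM over WT and 9.24 ± 4.25 FPKM over KO libraries (SD, n = 4 each), where KO 3 at 15.6 FPKM lay far above the 6.30 to 7.56 FPKM of the other KO libraries. Atr, a damage kinase gene, had a log2 change of -0.39, and the ubiquitin ligase genes Rfwd2 and Rchy1 of -0.39 and -0.29. Hipk2 and Atm, kinase genes that act on p53, had log2 changes of -0.13 and -0.16 (limma adjusted p from 0.775 to 0.938 for these 5 genes). Trp73, a p53 relative, and Cdkn2a, which encodes the Mdm2 inhibitor p19ARF, were listed at 0 in all 8 libraries.

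**Figure D3:**
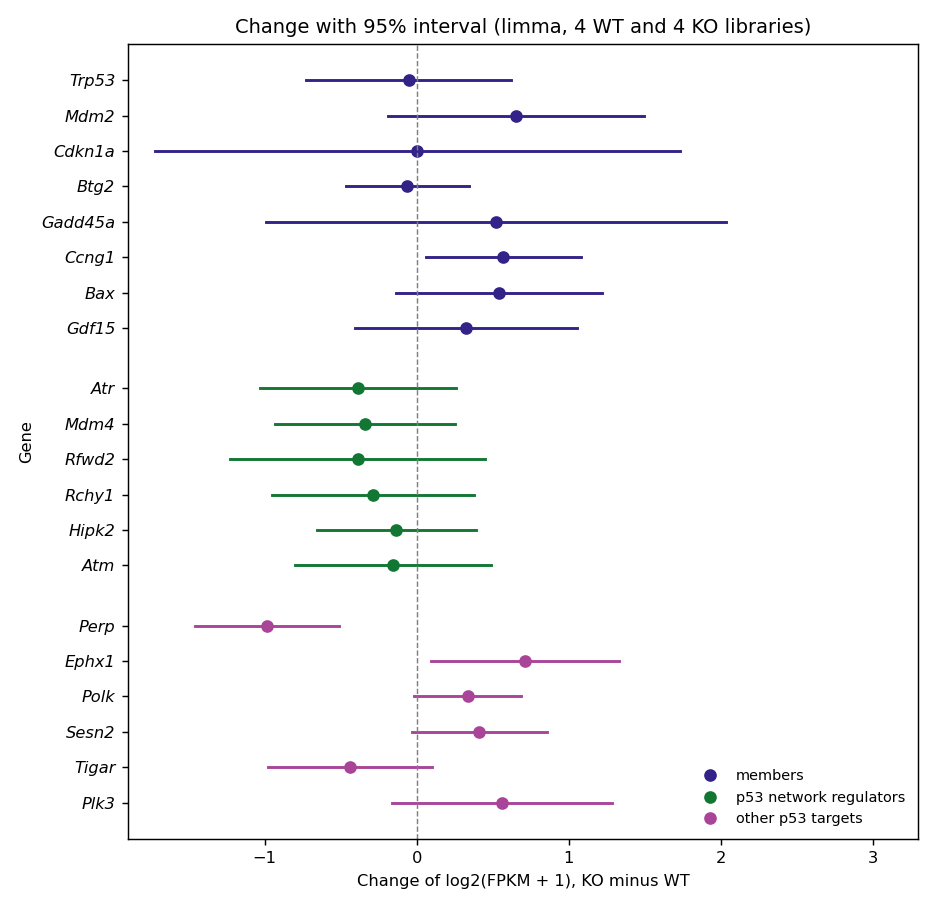
Change of log2(FPKM + 1) from WT to KO with its 95% interval (limma, 4 libraries each) for the 8 tested genes and for the 6 tested genes of smallest p among p53 regulators and among other p53 targets. The intervals of Ccng1, Ephx1 and Perp lie on 1 side of 0 before adjustment, and the widest belong to Cdkn1a and Gadd45a.

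The relatives of the 9 genes and the wider growth arrest and cell death genes gave no call. Of the other inhibitors of cyclin-dependent kinases 2 of 7 were tested, Cdkn1c (log2 change -0.71) and Cdkn1b (-0.34), and 0 passed in limma (0 at an unadjusted p under 0.05). Of 10 paralogs of Btg2, Gadd45a, Ccng1 and Phlda3, 8 were tested and 0 passed. At an unadjusted limma p under 0.05 there were 2, against 9.81% of all genes tested. Phlda1, a relative of Phlda3, averaged 11.97 ± 1.80 FPKM over WT and 19.4 ± 5.71 FPKM over KO libraries (SD, n = 4; adjusted p by limma 0.377), and Tob1, a relative of Btg2, had a log2 change of -0.30. Btg1, the nearest relative of Btg2, was at 27.2 FPKM in WT 4 against 6.13 to 6.69 FPKM in the other WT libraries and 3.57 to 4.65 FPKM in KO. Its log2 change was -0.97 with WT 4 and -0.48 without it (limma adjusted p = 0.483 with all libraries). Of 17 other BCL2 family genes 9 were tested and 0 passed (0 at an unadjusted p under 0.05), with a median of 0.07. The p53 target Bbc3, which encodes PUMA, stood at 3.01, 1.16, 0.803 and 1.37 FPKM in WT 1 to WT 4. KO 1 to KO 4 held 3.35, 1.27, 1.48 and 4.11 FPKM of it, and Bid and Bcl2l11 had log2 changes of -0.25 and -0.31.

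Changes of cell cycle genes were mostly positive and those of immediate early genes mostly negative, all without a call over all genes. Of all genes tested, 45.5% had a positive change and 9.81% an unadjusted limma p under 0.05 (4.99% higher and 4.82% lower). Of 12 tested cell cycle and replication genes 10 had a positive change (median 0.30) and 0 passed in limma (3 at an unadjusted p under 0.05). Mcm3 averaged 0.999 ± 0.279 FPKM over WT and 3.17 ± 1.75 FPKM over KO libraries (SD), and Rrm2 and Pcna had log2 changes of 0.98 and 0.48 (limma adjusted p = 0.266, 0.456 and 0.489). Of 13 tested immediate early genes, the class to which Btg2 belongs, 10 had a negative change (median -0.61) and 0 passed (7 at an unadjusted p under 0.05, of which 6 were lower and 1, Myc, named after its values were seen, was higher). Ier2 averaged 69.4 ± 11.3 FPKM over WT and 42.7 ± 6.09 FPKM over KO libraries (SD), and Nr4a1 and Dusp1 had log2 changes of -1.14 and -1.04 (limma adjusted p = 0.167, 0.175 and 0.332). Of 7 tested genes of the integrated stress response, which acts on Gdf15, 4 had a negative change (median -0.27) and 0 passed (0 at an unadjusted p under 0.05). Atf4, its main factor, had a log2 change of -0.37, Atf3 of -0.76 and Ppp1r15a of 0.28 (limma adjusted p = 0.697, 0.553 and 0.756).

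Other genes were searched for swings like those of Cdkn1a and Gadd45a. These 2 genes had the largest SD among the 8 tested, and the 5 genes with the closest profile to each were taken by the root mean square difference of centred log2(FPKM + 1) over the 8 libraries. For Cdkn1a these were Dhx36 (0.49), a helicase gene, Efcab14 (0.52), Ddc (0.57), the dopa decarboxylase gene, Arl5a (0.59) and Timeless (0.60), a replication fork gene. All 5 had their highest value in WT 4 and the next highest in KO 1, as Cdkn1a did; Timeless was at 4.57 and 3.91 FPKM there and at 0.740 FPKM or less in the other 6 libraries. For Gadd45a they were Homer2 (0.42), a scaffold gene, Ttc23 (0.50), Cers6 (0.52), a ceramide synthase gene, Wee1 (0.54), a clock-controlled inhibitor of mitotic entry, and Vgll4 (0.56), a cofactor of TEAD factors. All 5 had their lowest value in WT 4. Wee1 was at 0.484 FPKM there against 4.18 to 6.22 FPKM in the other libraries. Both sets of 5 were chosen for closeness to the profile of Cdkn1a or Gadd45a, so the shared extremes follow from the choice.

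**Figure D4:**
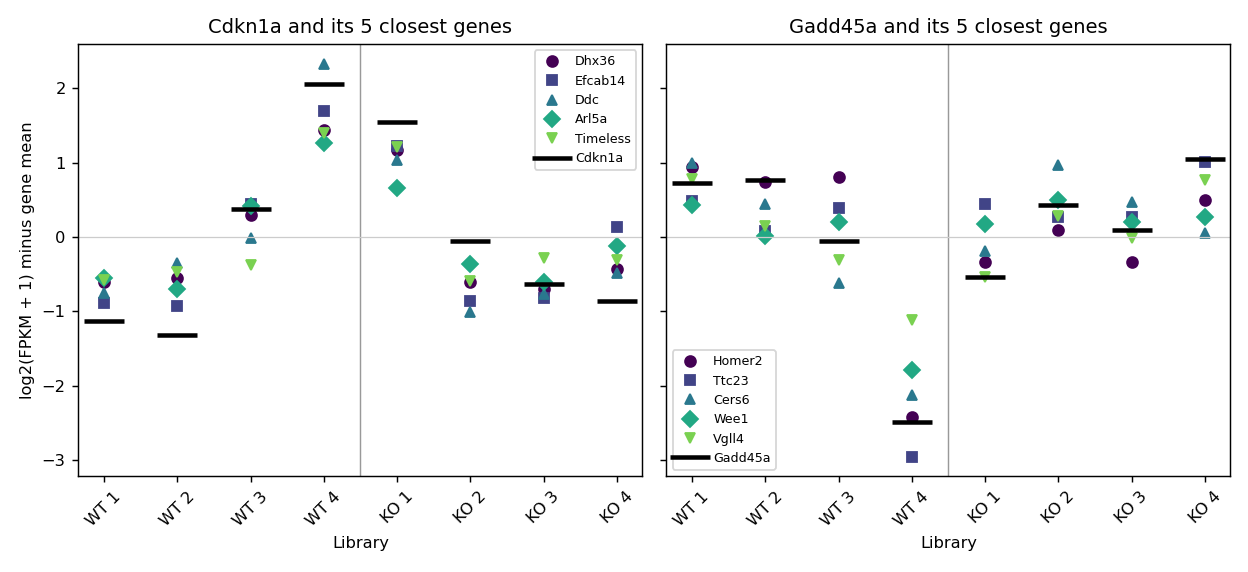
Deviation of log2(FPKM + 1) from the gene mean in each library for Cdkn1a (left, black bars) and Gadd45a (right, black bars) with the 5 genes of closest profile (coloured markers). WT 4 and KO 1 are high on the left, and WT 4 is low on the right.

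WT 4 was the highest library for most fasting genes, and extreme in some clock genes. Across all genes tested, 27.5% were highest in WT 4. Of 14 tested clock genes 0 passed in limma (2 at an unadjusted p under 0.05, against 9.81% of all genes tested). Their median change was -0.06, and 2 were highest in WT 4. WT 4 was the lowest library for Dbp, Tef, Per1, Per2, Per3, Nr1d2 and Ciart (listed after their values were seen). Per2 was at 1.55 FPKM there and at 7.88 FPKM or more elsewhere. The share of all genes lowest in WT 4 is not given. Nfil3, a repressor that runs opposite to Dbp, was at 11.5 FPKM in WT 4 and between 1.48 and 4.44 FPKM in the other 7 libraries, while Hlf and Bhlhe40 had log2 changes of -0.80 and -0.52. Of 13 tested fasting and PPAR-alpha genes 12 were highest there, 0 passed (3 at an unadjusted p under 0.05) and the median was -0.39. Acot1 and Acot2, acyl-CoA thioesterase genes, were at 17.3 and 8.40 FPKM in WT 4 and at 5.32 and 2.73 FPKM or less in the other libraries. The part of feeding state or time of collection in the values of Cdkn1a and Gadd45a was not tested, and the labels give neither.

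Summed markers of macrophages, endothelial cells, stellate cells and neutrophils did not overlap between the groups. The 12 macrophage markers summed to 7.25 to 16.6 FPKM in WT and 23.4 to 168 FPKM in KO. All 11 tested members had a positive change (median 2.17), against 45.5% of all genes tested, and 0 passed in limma. All 11 were higher in KO at an unadjusted limma p under 0.05, as were 4.99% of all genes tested. From KO 1 to KO 4 the sums were 95.8, 23.4, 168 and 134.6 FPKM, so KO 3, the lowest KO library in Phlda3 and Ccng1, was the highest here. Endothelial markers (10 genes, 6 tested, median 0.94) summed to 2.57 to 6.30 FPKM in WT and 8.80 to 22.04 FPKM in KO, and stellate cell markers (10 genes, 3 tested, median 1.13) to 2.24 to 6.59 and 13.3 to 25.4 FPKM. The stellate sums from KO 1 to KO 4 were 25.4, 13.6, 13.3 and 18.8 FPKM, so here KO 3 was the lowest. KO 1 held the highest endothelial, stellate, lymphocyte and neutrophil sums of the 8 libraries. Lymphocyte markers (10 in the table, 0 tested) were low, with Klrb1c at 0. They summed to 0.0726 to 0.354 FPKM in WT and 0.340 to 1.41 FPKM in KO, with a slight overlap. Neutrophil markers (7 in the table, 0 tested) were also low, with Ltf at 0, and summed to 0 to 0.196 FPKM in WT and 0.220 to 0.999 FPKM in KO. The part of these cells in the p53 target values was not tested.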

How the data were processed

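The authors deposited 1 table of FPKM values (35638 Ensembl genes, 8 libraries). The submitters' processing notes name TopHat, edgeR and mm10. What each did, which annotation served and whether strand was used is not given in the sources used here. Each FPKM depends on the reads of the whole library, so abundant transcripts lower all other values. Columns were matched to samples by name, and 99.4% of gene IDs matched GENCODE M21 (GRCm38), from which coordinates come. The 11266 genes with a mean of at least 1 FPKM were taken as log2(FPKM + 1), which understates changes of low genes, and tested between genotypes by limma (version 3.58.1, R 4.3.3; intensity trend, two-sided, Benjamini-Hochberg adjustment, threshold 0.05). The fit was tested on simulated data, where it called 43 of 100 genes given a log2 change of 1 and 91 of 100 given 2. Smaller changes, such as those of the tested p53 pathway genes, can therefore be missed. Depth was estimated from how low values are spaced in 12059 genes with 1 annotated transcript of at least 400 nt. The 9 genes and the 17 lists were chosen with earlier results of these data known. The result of 1 marker list is not reported here. Named genes were the 9, Arid1a, the 6 tested genes of smallest p in each p53 list, the 3 of smallest p in each other pathway list, and the closest profiles. Promoters are RefSeq's (GRCm38.p6). Alternatives changed the pseudocount, filter, scaling, limma options, replicate block and libraries. Plots used Python 3.11.15 with matplotlib 3.10.9.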

Additional observations from a re-analysis of the deposited data

Results flagged for a closer look

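In each group of 4 libraries, a library was marked when its gap to the nearest other library took up most of the range of the group (Dixon's test at 95%). For normally distributed values chance does this in about 1 in 20 groups. Of 110 groups tested 20 were marked, and of the 18 groups of the 9 p53 pathway genes 4 were. FPKM need not be normally distributed, many of the genes were picked by p or profile, and the rate over all genes is not given. The counts are therefore not read against 1 in 20.

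Among the 9 genes, Mdm2 in KO 1 was at 17.6 FPKM against 4.33 to 5.03 FPKM in the other KO libraries. Bax in KO 1 was at 13.7 FPKM against 6.80 to 7.58 FPKM. Phlda3 in KO 3 was at 0.105 FPKM, below the 0.8285 to 0.906 FPKM of the other KO libraries, and in WT 4 it was listed at 0 against 0.0266 to 0.0285 FPKM in the other WT libraries, a mark that rests on 1 smallest step. Of the p53 regulators, Mdm4 in KO 3 was at 15.6 FPKM against 6.30 to 7.56 FPKM, and Atm stood high in WT 3 (4.36 FPKM against 1.15 to 1.65 FPKM) and in KO 2 (1.93 FPKM against 1.40 to 1.48 FPKM).

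WT 4 was marked in 10 further groups. It was high in Btg1 (27.2 FPKM against 6.13 to 6.69 FPKM), Atf4 (35.1 FPKM against 23.7 to 24.5 FPKM), Acot1 (17.3 FPKM against 3.99 to 5.32 FPKM), Acot2 (8.40 FPKM against 1.96 to 2.73 FPKM) and Cyp4a10 (317 FPKM against 41.8 to 54.3 FPKM). It was also high in Ddc (13.9 FPKM against 0.756 to 1.92 FPKM) and Timeless (4.57 FPKM against 0.417 to 0.622 FPKM). It was low in Plk3 (15.4 FPKM against 29.6 to 31.9 FPKM), Nr4a1 (9.08 FPKM against 15.9 to 16.4 FPKM) and Homer2 (1.62 FPKM against 22.6 to 25.95 FPKM). KO 1 was high in Dhx36 (9.24 FPKM against 1.81 to 2.39 FPKM), Ddc (5.08 FPKM against 0.475 to 1.11 FPKM) and Timeless (3.91 FPKM against 0.402 to 0.740 FPKM). Dhx36, Ddc and Timeless were chosen for a profile like that of Cdkn1a and Homer2 for one like that of Gadd45a, so their marks repeat those profiles.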

How the results depend on the processing

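The 8 tested genes gave 0 calls in every alternative fit that held them. With a minimum of 5 FPKM only 6 were tested, without Trp53 and Cdkn1a. Ccng1, Mdm2, Bax and Gdf15 kept a positive change in every alternative fit. Over all genes, 46 were called higher and 40 lower. Genes called higher numbered 27 with a pseudocount of 5 FPKM, 14 with a minimum of 5 FPKM, 71 without WT 4 and KO 2, and from 20 to 90 with 1 library left out. Genes called lower numbered 26 with no filter, 13 with a minimum of 5 FPKM, and from 14 to 44 with 1 library left out. With the replicate block, 16 were called higher and 8 lower. The deviations of same-numbered libraries had correlations of 0.096, -0.067, 0.015 and 0.25, not all over 0.1, so the numbers were not taken to pair samples, although for 3 of the 4 numbers the best partner carried the same number. Equal sums moved the median change of all genes from -0.03 to -0.12.

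Of the 8 tested genes 0 had groups without overlap. This was 1 of the 9 with no filter (Phlda3), 1 under equal sums of protein-coding genes, 1 under quantile normalization, 2 without WT 4 and KO 2, 1 without WT 4 and KO 1, and from 0 to 2 with 1 library left out. The share of all genes without overlap in these alternatives is not given, and smaller groups separate more often by chance. These counts are therefore not a result about the 9. The median change of the 8 fell from 0.42 to 0.14 without WT 4 and KO 1. Among other p53 targets, 1 gene (Perp) was called under equal sums of protein-coding genes, 1 under quantile normalization and 1 under median ratio scaling.

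Some changes turned sign. A pseudocount of 0.1 FPKM gave Homer2 0.056, and one of 5 FPKM gave Cdkn1a -0.075 and Timeless -0.0076. Equal sums gave Cdkn1a -0.069 and Timeless -0.019, and quantile normalization gave Btg2 0.0057. Without WT 4 and KO 2 the changes were -0.28 for Gadd45a, 0.30 for Dhx36, 0.63 for Efcab14, 0.30 for Ddc, 0.26 for Arl5a, -0.16 for Cers6 and -0.14 for Vgll4. With 1 library left out, changes ran from -0.21 to 0.15 for Trp53, -0.51 to 0.69 for Cdkn1a, -0.15 to 0.014 for Btg2, -0.22 to 0.87 for Gadd45a, and -0.30 to 0.14 for Atm. They ran from -0.72 to 0.15 for Dhx36, -0.60 to 0.37 for Efcab14, -1.06 to 0.066 for Ddc, -0.48 to 0.17 for Arl5a, -0.39 to 0.49 for Timeless, -0.85 to 0.27 for Homer2 and -0.082 to 0.55 for Vgll4. For these shifts the cause was not tested. Both pairs of libraries left out together were chosen after the values were known.

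Limits: 4 libraries a group leave intervals as wide as -1.72 to 1.73 for Cdkn1a, and Phlda3 in the WT libraries lies at the smallest value above 0 or at 0.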
